A study of Mus musculus with 2 samples.

Results

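The Iroquois (*Irx*) genes of the mouse encode 6 homeodomain transcription factors, *Irx1* to *Irx6*, which lie in 2 clusters of 3 genes. They were picked by gene symbol out of the 29311 genes listed in each of the RNA-seq tables, and all 6 members were listed. *IrxA* held *Irx1*, *Irx2* and *Irx4* on chromosome 13, and *IrxB* held *Irx3*, *Irx5* and *Irx6* on chromosome 8. The rule names symbols only and uses no threshold on a measured value.

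Iroquois proteins belong to the TALE class of homeodomain proteins, in which an extra stretch of residues lengthens the loop between the first helices of the homeodomain. They carry in addition a short conserved motif, the Iro box, and act largely as transcriptional repressors. The clusters arose by duplication of an ancestral cluster, so that *Irx1* and *Irx3*, *Irx2* and *Irx5*, and *Irx4* and *Irx6* are regarded as counterparts. In the neural tube, *Irx3* borders the domain of *Olig2* in the ventral spinal cord and that of *Six3* in the anterior neural plate, where the border lies close to the future zona limitans of the diencephalon.

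The study followed the folding of *Hox* clusters as their genes become active in the embryo, and RNA was sequenced from ES cells and from E10.5 forebrain. ES cells were wild-type mouse embryonic stem cells of the E14 line, an established culture that the methods describe as grown without feeders in serum and LIF, and their RNA was isolated in Trizol. E10.5 forebrain was wild-type tissue from B6CBAF1/J embryos at E10.5, isolated in Trizol LS, which the methods describe as taken from single embryos. The groups therefore differed in strain, source and extraction reagent as well as in cell type, and these cannot be told apart. Each group had 1 library of rRNA-depleted, strand-specific total RNA.

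With 1 library per group, differences between ES cells and E10.5 forebrain had no replicate check, and no p-values are given. The deposited values, which the authors call RPKM, were reads per kb of exon multiplied by a factor for each library, and they were not per 1000000 reads. Of the genes with low values, 66.0% in ES cells and 69.1% in the forebrain library lay within 0.05 of a whole multiple of a step, which was taken as 1 read. This step, per kb of exon, was 1.221 in ES cells and 0.8191 in the forebrain library, and it corresponded to 42781193 reads on genes in the ES library, whereas the forebrain library had 59783264, 1.40 times as many. Per 1000000 inferred reads, levels would be 52.2 times lower in ES cells and 49.0 times lower in E10.5 forebrain, so that *Irx2* would be at 1.14 and 2.98. Levels on the deposited scale can therefore be compared within the tables and not with RPKM from other sources. The median RPKM of all listed genes was 48.94 for ES cells and 62.37 for E10.5 forebrain. Intervals are 95% intervals on the inferred reads and cover counting error only. A count of 3 reads corresponded to an RPKM of 1.09 to 1.78 for the *Irx* genes in the ES library and of 0.73 to 1.19 in that of E10.5 forebrain, and it was taken as the floor of detection.

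Markers chosen for the cell types named by the labels were higher in the library of that label. All 8 pluripotency markers were at least 4-fold higher in ES cells, with a summed RPKM of 41399 against 162 in E10.5 forebrain, and none was at 0 in either library. The 7 of 8 neural progenitor markers that were listed were at least 4-fold higher in E10.5 forebrain, with a sum of 11231 against 243. The same held for 10 of 10 telencephalic and rostral forebrain markers, whose sum was 1931 in E10.5 forebrain against 8.49 in ES cells. Among all listed genes, 14.4% were at least 4-fold higher in E10.5 forebrain and 11.3% in ES cells. The forebrain library was not of neural cells alone, since markers of head mesenchyme and neural crest summed to 5060 in it. Those of blood and endothelium summed to 674316.

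The homeobox carries the part of the sequence that the 6 genes have in common, and it is shown because short reads from this part may map to more than 1 *Irx* gene. The runs below give the 189 coding bases of the homeodomain in NCBIM37 (mm9), 5′ to 3′ on the coding strand, each from a single exon, and capitals mark bases identical in all 6 genes. In chromosomal order, the *IrxA* genes come first (*Irx1*, chr13:72097443-72097631, minus strand, *Irx2*, chr13:72768109-72768297, plus strand, and *Irx4*, chr13:73404968-73405156, plus strand) and the *IrxB* genes follow (*Irx3*, chr8:94324398-94324586, minus strand, *Irx5*, chr8:94883523-94883711, plus strand, and *Irx6*, chr8:95201132-95201320, plus strand).
Irx1: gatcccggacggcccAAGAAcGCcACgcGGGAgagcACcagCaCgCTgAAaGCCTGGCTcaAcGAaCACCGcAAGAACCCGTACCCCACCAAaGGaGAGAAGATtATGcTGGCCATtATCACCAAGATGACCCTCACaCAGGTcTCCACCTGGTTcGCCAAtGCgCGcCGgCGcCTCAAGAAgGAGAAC
Irx2: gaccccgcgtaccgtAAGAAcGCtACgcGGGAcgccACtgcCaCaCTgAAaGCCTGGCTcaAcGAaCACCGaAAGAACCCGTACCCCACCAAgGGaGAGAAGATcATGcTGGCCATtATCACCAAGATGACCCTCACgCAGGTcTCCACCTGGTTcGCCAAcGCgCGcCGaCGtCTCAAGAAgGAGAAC
Irx4: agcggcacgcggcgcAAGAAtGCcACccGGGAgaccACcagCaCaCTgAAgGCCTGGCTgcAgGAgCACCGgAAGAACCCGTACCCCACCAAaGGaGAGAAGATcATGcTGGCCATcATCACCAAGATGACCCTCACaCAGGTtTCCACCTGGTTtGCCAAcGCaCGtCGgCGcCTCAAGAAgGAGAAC
Irx3: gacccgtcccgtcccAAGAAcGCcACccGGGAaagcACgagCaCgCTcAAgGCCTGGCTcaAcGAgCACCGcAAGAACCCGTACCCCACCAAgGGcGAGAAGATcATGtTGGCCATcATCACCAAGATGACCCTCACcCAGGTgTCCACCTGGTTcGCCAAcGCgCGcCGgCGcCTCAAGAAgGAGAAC
Irx5: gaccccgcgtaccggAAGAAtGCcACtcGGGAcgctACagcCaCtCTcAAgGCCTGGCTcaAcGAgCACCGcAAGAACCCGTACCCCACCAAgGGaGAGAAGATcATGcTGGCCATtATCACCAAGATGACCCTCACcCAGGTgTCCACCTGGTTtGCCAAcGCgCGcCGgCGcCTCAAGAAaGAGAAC
Irx6: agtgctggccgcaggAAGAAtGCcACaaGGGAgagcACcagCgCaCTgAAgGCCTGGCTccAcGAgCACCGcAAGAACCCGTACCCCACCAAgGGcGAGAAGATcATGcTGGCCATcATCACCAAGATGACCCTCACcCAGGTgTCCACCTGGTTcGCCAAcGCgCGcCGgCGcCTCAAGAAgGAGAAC
The bases that differed were spread over the homeobox, with the most variable stretch at its 5′ end.

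Of the 189 bases, 140 (74.1%) were the same in the 6 genes, and 53 of the 63 encoded residues (84.1%) were the same. The longest run common to all was 20 bases. By encoded residues, the counterparts in the other cluster were the closest for *Irx2* and *Irx5*, with 63 of 63 residues in common, and for *Irx1* and *Irx3*, with 62 of 63. *Irx4* and *Irx6* had 58 of 63 in common, which was the highest value for *Irx4* and was equalled for *Irx6* by *Irx1*. By bases, *Irx2* and *Irx5* were 91.0% identical, *Irx1* and *Irx3* 89.4% and *Irx4* and *Irx6* 87.8%, while *Irx6* was closest to its cluster neighbour *Irx3* at 88.9%.

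**Figure D1:**
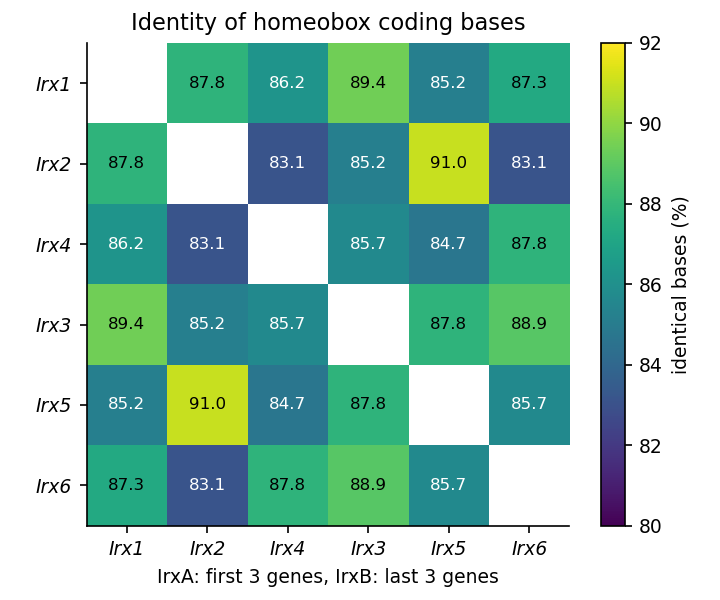
Percentage of identical bases between the 189-base homeobox coding sequences of each pair of *Irx* genes, with *IrxA* genes in the first 3 rows and columns and *IrxB* genes in the last 3. The highest value is that of *Irx2* and *Irx5* (91.0%), and the lowest is 83.1%, found for *Irx2* with *Irx4* and with *Irx6*.

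All 6 *Irx* genes had a higher RPKM in E10.5 forebrain than in ES cells, and 5 of the 6 were at least 4-fold higher on the scale of log2(RPKM + 1). Among all listed genes, 14.4% were at least 4-fold higher in E10.5 forebrain. None of the 6 was at least 4-fold higher in ES cells, where 11.3% of all listed genes were. The median log2 ratio of the 6 genes, forebrain over ES cells, was 4.61, against 0.01 for all listed genes. In a bulk library, fewer cells of a type and less RNA per cell cannot be told apart, so that the values do not say in how many forebrain cells an *Irx* gene was transcribed.

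*Irx3* had the highest value of the family in E10.5 forebrain. The gene, ENSMUSG00000031734 at chr8:94322428-94325553 on the minus strand with 2345 bp of exon, is best known for its part in dorsoventral and rostrocaudal patterning of the neural tube. Its RPKM was 0.89 in ES cells (interval 0.0826 to 3.52) but 337.48 in E10.5 forebrain (317 to 359). The inferred reads were 1.71 and 966, so that *Irx3* was under the floor in ES cells and above 71.7% of all listed genes in E10.5 forebrain. The ratio was 379 (95.7 to 4091), and the log2 ratio of 7.48 stood at percentile 99.6 of all listed genes.

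*Irx5* stood next to it, both in level and in ratio. It is a regulator of retinal interneurons and of cardiac repolarization, and lies at chr8:94881695-94885351 on the plus strand (ENSMUSG00000031737, 2399 bp of exon). Its RPKM was 1.76 in ES cells (0.420 to 4.81) but 197.21 in E10.5 forebrain (181 to 214), from 3.46 and 578 inferred reads. The ratio was 112 (40.8 to 471), with a log2 ratio of 6.17. *Irx5* was the only *IrxB* gene above the floor of 3 reads in ES cells, and by less than 1 read.

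*Irx6*, the third *IrxB* gene, was far lower than its cluster neighbours in E10.5 forebrain. It is known from bipolar cells of the retina and lies at chr8:95198188-95204855 on the plus strand (ENSMUSG00000031738, 3369 bp of exon). Its RPKM was 0.43 in ES cells (0.0178 to 2.14) but 20.75 in E10.5 forebrain (16.6 to 25.6), from 1.19 and 85.3 inferred reads. Although under the median of all listed genes in both libraries, it was 48.3 times higher in E10.5 forebrain (9.45 to 1177), with a log2 ratio of 3.93.

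In the *IrxA* cluster, *Irx1* followed the pattern of *Irx3* and *Irx5* at a lower level. *Irx1* (ENSMUSG00000060969, chr13:72095680-72101171, minus strand, 2062 bp of exon) is expressed in many embryonic epithelia and in the neural tube. Its RPKM was 1.45 in ES cells (0.235 to 4.69) but 95.59 in E10.5 forebrain (83.9 to 108), from 2.45 and 241 inferred reads. The ratio was 65.9 (20.1 to 410) and the log2 ratio 5.30.

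*Irx2* was the exception, since it was far above the floor of 3 reads in both sources. *Irx2* (ENSMUSG00000001504, chr13:72766245-72771644, plus strand, 3303 bp of exon) has a pattern in the embryo that often overlaps with that of *Irx1*. Its RPKM was 59.68 in ES cells (50.8 to 69.6), from 161 inferred reads, against 146.09 in E10.5 forebrain (135 to 158), from 589. This placed *Irx2* above 52.2% of all listed genes in ES cells, where the other *Irx* genes were above 11.5% to 19.4%. *Irx2* was 2.45 times higher in E10.5 forebrain (2.05 to 2.93), a log2 ratio of 1.28 that stayed short of the 4-fold limit. No *Irx* gene had a smaller ratio between the libraries.

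*Irx4*, a gene of the ventricular myocardium that sets chamber identity in the heart, was the lowest of the family in E10.5 forebrain. It lies at chr13:73397945-73407068 on the plus strand (ENSMUSG00000021604, 2601 bp of exon). Its RPKM was 0.59 in ES cells (0.0284 to 2.82) but 12.43 in E10.5 forebrain (8.86 to 17.0), from 1.26 and 39.5 inferred reads. The ratio was 21.1 (4.15 to 450) and the log2 ratio 3.08. With a pseudocount of 5 in place of 1, the log2 ratio of *Irx4* was 1.64 and the number of *Irx* genes at least 4-fold higher was 4.

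**Figure D2:**
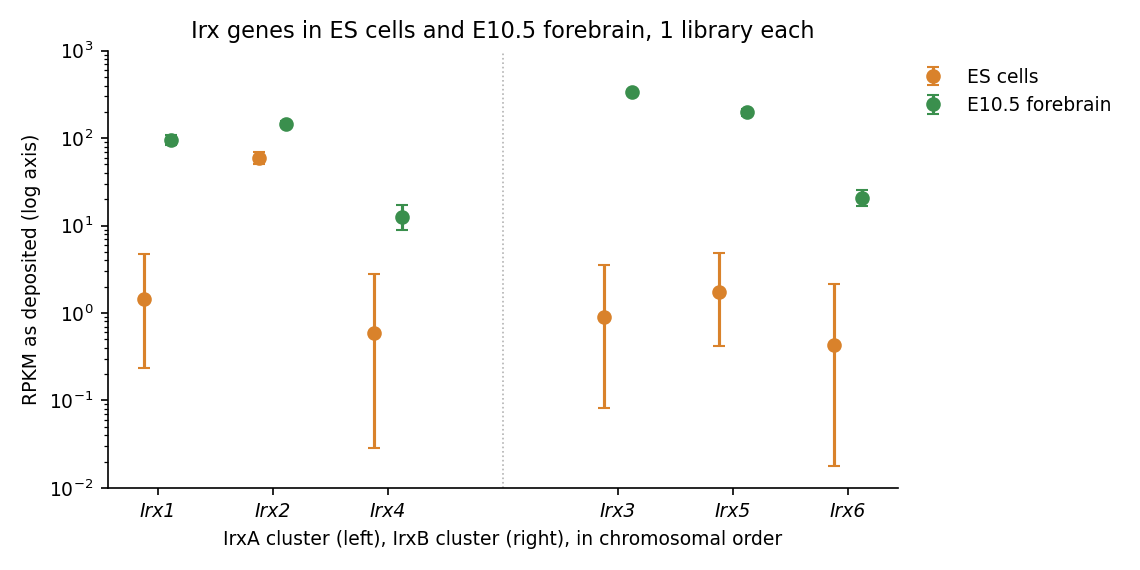
Deposited RPKM of the *Irx* genes on a log axis in ES cells (orange) and E10.5 forebrain (green), 1 library each, with bars for the exact Poisson 95% interval of the inferred reads. Except for *Irx2* at 59.68, the ES values lie between 0.43 and 1.76, and the forebrain values run from 12.43 for *Irx4* to 337.48 for *Irx3*.

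The order of the genes differed between the sources. In E10.5 forebrain it was *Irx3*, *Irx5*, *Irx2*, *Irx1*, *Irx6* and *Irx4*, and every neighbour in this order differed beyond counting error. The smallest step was that from *Irx5* to *Irx2*, at 1.35 times (1.20 to 1.52), and the largest that from *Irx1* to *Irx6*, at 4.61 times (3.58 to 5.97). In ES cells *Irx2* came first and was 33.9 times above *Irx5* (12.2 to 144). The order of *Irx5*, *Irx1*, *Irx3*, *Irx4* and *Irx6* in ES cells could not be told at this depth, since the interval of each ratio between neighbours included 1.

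Summed over its 3 genes, *IrxB* stood above *IrxA* in E10.5 forebrain and below it in ES cells. In ES cells the summed RPKM was 61.7 for *IrxA* and 3.08 for *IrxB*, a ratio of *IrxB* to *IrxA* of 0.0499 (approximate 95% interval 0.0225 to 0.111). In E10.5 forebrain the sums were 254 and 555, a ratio of 2.19 (2.01 to 2.38). Both sums were higher in E10.5 forebrain, by 4.12 times for *IrxA* (3.48 to 4.87) and by 180 times for *IrxB* (82.3 to 395).

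These ratios rested on single genes. *Irx2* made up 92.1% of the summed RPKM of the 6 genes in ES cells but 18.0% in E10.5 forebrain. Without *Irx2*, the ratio of *IrxB* to *IrxA* in ES cells was 1.51, on sums of a few reads, and *IrxA* was 53.0 times higher in E10.5 forebrain than in ES cells. *Irx3* made up 41.7% of the sum in E10.5 forebrain and *Irx5* 24.4%, against 11.8% for *Irx1*, 2.6% for *Irx6* and 1.5% for *Irx4*. Without *Irx3*, *IrxB* was at 0.858 of *IrxA* in E10.5 forebrain.

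The counterparts were also compared one by one. In E10.5 forebrain, the *IrxB* gene was the higher one in each of the 3 pairs. *Irx3* was 3.53 times above *Irx1* (3.06 to 4.08), *Irx5* was 1.35 times above *Irx2* (1.20 to 1.52) and *Irx6* was 1.67 times above *Irx4* (1.13 to 2.50). In ES cells, *Irx5* was at 0.0295 of *Irx2* (0.00696 to 0.0821). The other pairs could not be ordered in ES cells, with a ratio of *Irx3* to *Irx1* of 0.614 (0.0377 to 7.03) and of *Irx6* to *Irx4* of 0.729 (0.0164 to 29.0).

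The low values in ES cells rested on few reads. The 5 genes other than *Irx2* had 10.1 inferred reads between them, and 4 of the 5 were under the floor. None of their inferred numbers was within 0.05 of a whole number, as can occur where a read that maps to several places is split between them. In mm9, 2.59% of the exonic windows of 50 bases of *Irx2* matched another place in the genome with up to 2 mismatches, and the windows matched each of the other *Irx* genes. At even coverage, this corresponds to 4.17 of the *Irx2* reads in ES cells. For windows of 100 bases, only *Irx3* (2.83%) and *Irx6* (2.02%) had matches, each to the other. The labels give reads of 100 bp and the methods reads of 50 bp, and the part of shared reads in the ES values of these 5 genes was not tested. In E10.5 forebrain, windows of 50 bases with a match made up at most 5.49% of an *Irx* gene.

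The 300 bases upstream of *Irx2* and *Irx5* are printed because these counterparts encode the same homeodomain and had different levels in ES cells. They lie at chr13:72765945-72766244 and chr8:94881395-94881694 in mm9, both on the plus strand and read 5′ to 3′ towards the gene start, and capitals mark CG dinucleotides, which read the same on both strands.
Irx2: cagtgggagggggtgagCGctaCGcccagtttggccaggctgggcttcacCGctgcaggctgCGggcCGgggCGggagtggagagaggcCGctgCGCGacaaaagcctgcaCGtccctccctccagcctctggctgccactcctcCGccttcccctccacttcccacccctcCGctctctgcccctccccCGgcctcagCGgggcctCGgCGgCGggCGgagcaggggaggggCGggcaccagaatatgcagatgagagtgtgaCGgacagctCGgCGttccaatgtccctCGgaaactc
Irx5: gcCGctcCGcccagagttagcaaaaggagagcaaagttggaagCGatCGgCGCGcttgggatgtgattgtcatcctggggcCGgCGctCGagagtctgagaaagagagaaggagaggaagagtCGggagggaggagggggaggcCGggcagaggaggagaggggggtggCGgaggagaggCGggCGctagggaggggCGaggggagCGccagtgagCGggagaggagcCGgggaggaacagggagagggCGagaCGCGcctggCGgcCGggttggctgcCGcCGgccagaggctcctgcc
Both stretches were rich in CG, with 23 CG dinucleotides upstream of *Irx2* and 25 upstream of *Irx5*, against a median of 12 over 19615 protein-coding genes. As many were held by 22.8% and 18.9% of these genes. The same stretch held 27 CG dinucleotides at *Irx1*, 22 at *Irx4*, 17 at *Irx3* and 8 at *Irx6*, which was the only *Irx* gene under the median. A relation between CG dinucleotides and level was not tested.

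The neighbourhoods of the clusters were then examined, with all listed genes that overlapped a cluster or lay within 500 kb of it. *IrxA* spanned 1311 kb, with gaps of 665 and 626 kb between its genes, and *IrxB* spanned 882 kb, with gaps of 556 and 313 kb. Around *IrxB*, 5 of 14 other listed genes were at least 4-fold higher in E10.5 forebrain and none was in ES cells. Around *IrxA*, 0 of 10 were at least 4-fold higher in either source. Of all listed genes, 14.4% were at least 4-fold higher in E10.5 forebrain and 11.3% in ES cells. With so few neighbours, 0 of 10 is not far from these shares. Some neighbours, such as *Capns2* and *Slc6a2* near *IrxB*, had few inferred reads in both libraries, so that their ratios say little. The median log2 ratio was 1.25 around *IrxB* and -0.07 around *IrxA*, or 0.86 and -0.08 with values of 0 set to the floor.

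Inside *IrxB*, both other transcription units were low in ES cells and high in E10.5 forebrain, next to an *Irx* gene. *D230002A01Rik*, a lincRNA annotated antisense to the 5′ part of *Irx3* at chr8:94324314-94331438, had an RPKM of 1.56 in ES cells but 68.37 in E10.5 forebrain, a ratio of 43.8 (18.1 to 142). Its exons overlap those of *Irx3* over 124 bp, of which 40 bp lie in the homeobox printed above. Whether the counting used strand is not given in the sources used here, and without strand, reads of this overlap cannot be told apart. At even coverage, *Irx3* reads in the overlap would give *D230002A01Rik* an RPKM of 11.4 in E10.5 forebrain, and the reverse would give *Irx3* 3.62.

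*4933436C20Rik*, at chr8:94849937-94880019 on the minus strand, starts 1675 bp from *Irx5* and runs away from it. Its RPKM was 2.96 in ES cells but 147.21 in E10.5 forebrain, a ratio of 49.7 (16.8 to 243), beside 112 for *Irx5*. On the *Irx6* side, *Mmp2*, a matrix metalloproteinase gene, was at 26.12 and 661.63 (ratio 25.3, 19.8 to 32.9) and *Lpcat2*, a phospholipid acyltransferase gene, at 4.88 and 27.65. *Ces1d*, a carboxylesterase gene, was listed at 0 in ES cells but at 6.37 in E10.5 forebrain, from 18.4 inferred reads. On the *Irx3* side, *Fto*, whose introns are known to hold regulatory elements of *Irx3*, and *Rpgrip1l*, a gene of the ciliary transition zone, were transcribed in both sources. *Fto* was at 125.92 and 310.19 (ratio 2.46, 2.32 to 2.62) and *Rpgrip1l* at 48.56 and 158.66 (ratio 3.27, 2.93 to 3.65).

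The *IrxA* interval was emptier. *Rpl9-ps4*, a ribosomal protein gene copy between *Irx1* and *Irx2*, was the only other gene listed inside it, with an RPKM of 237.22 in ES cells but 136.45 in E10.5 forebrain. Reads of such a copy may come from other copies of the gene, so that this value is uncertain. Past *Irx4*, *Ndufs6* and *Mrpl36*, which encode mitochondrial proteins, were at 1292.92 and 1353.95 in ES cells and at 802.67 and 1130.23 in E10.5 forebrain. *Lpcat1*, another acyltransferase gene, was the highest of them in E10.5 forebrain, at 1899.21 against 1456.56 in ES cells (ratio 1.30, 1.26 to 1.35). *Tert*, the reverse transcriptase of telomerase, was at 165.53 and 175.01.

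**Figure D3:**
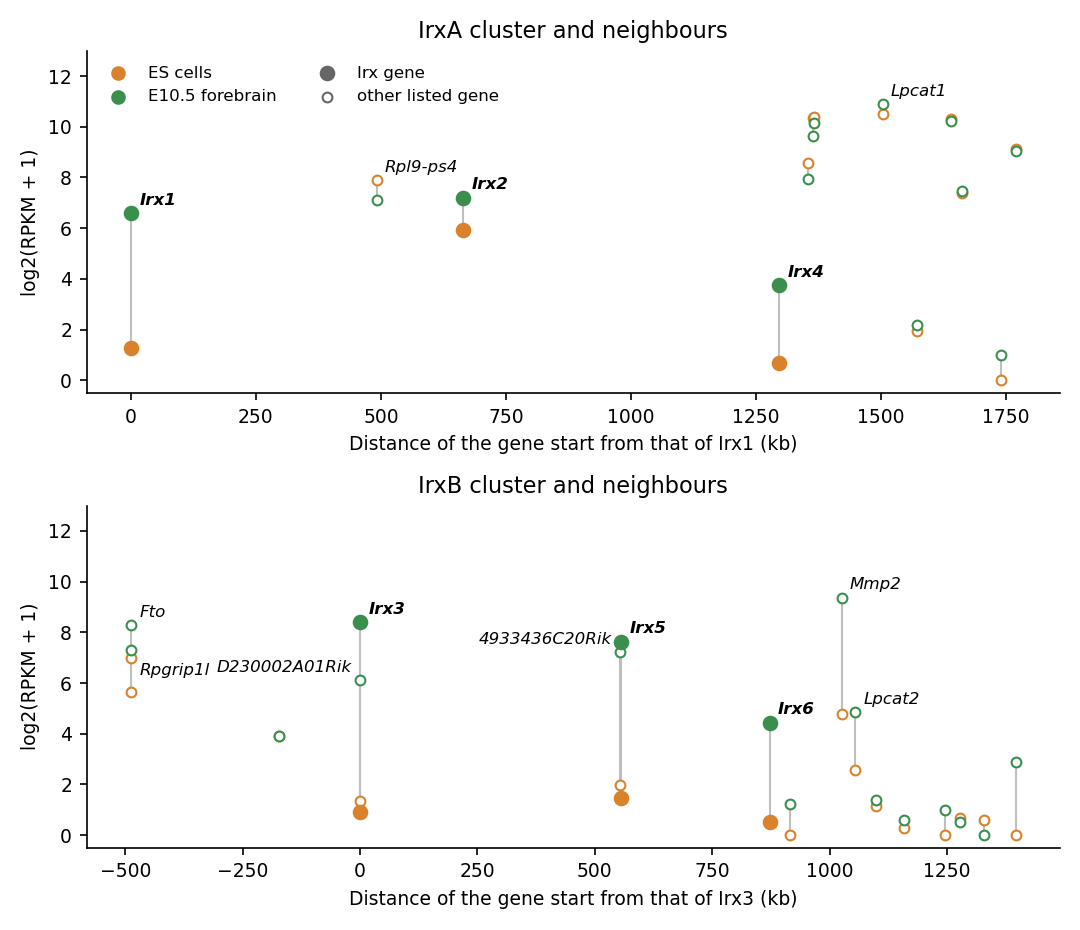
Level of each listed gene, as log2(RPKM + 1), against the distance of its start from that of *Irx1* (top, *IrxA*) or *Irx3* (bottom, *IrxB*) in kb, with filled points for *Irx* genes, open points for other genes, orange for ES cells and green for E10.5 forebrain. Inside *IrxB*, *D230002A01Rik* and *4933436C20Rik* lie low in ES cells and high in E10.5 forebrain beside *Irx3* and *Irx5*, whereas around *IrxA* no gene other than *Irx1* and *Irx4* is at least 4-fold apart.

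Among the other TALE homeobox genes, 7 of 11 were at least 4-fold higher in E10.5 forebrain and none in ES cells, with a median log2 ratio of 2.85. The shares over all listed genes were 14.4% and 11.3%. *Irx3* and *Irx5* had the highest ratios of all 17 TALE genes, and *Irx1* ranked 5, just below *Meis1* (log2 ratio 5.54), which encodes a partner of Hox proteins. By level in E10.5 forebrain, *Irx3* ranked 8 of 17, *Irx5*, *Irx2* and *Irx1* took ranks 12 to 14, and *Irx6* and *Irx4* came last, below *Pbx4* (67.12). In ES cells, *Irx2* ranked 5 of 17 and was above 7 of the 11 other TALE genes, while the other *Irx* genes took ranks 13 to 17. *Tgif1*, which encodes a repressor of TGF-beta and retinoid signalling, was the highest TALE gene in ES cells (1626.13) and had the lowest ratio of the class, at a log2 value of -1.46.

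**Figure D4:**
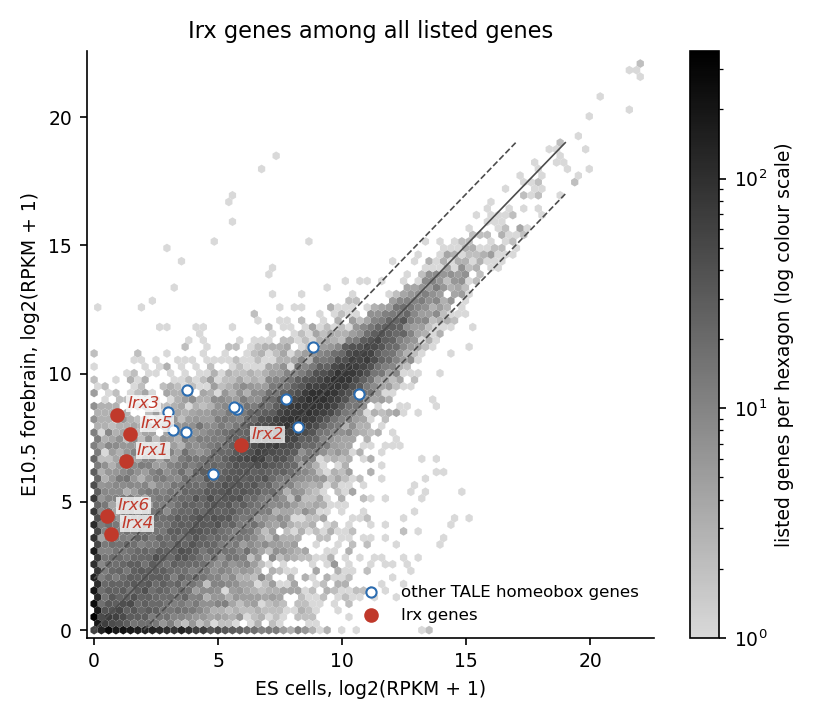
Each listed gene by log2(RPKM + 1) in ES cells (horizontal) and E10.5 forebrain (vertical), as the number of genes per hexagon on a log grey scale, with *Irx* genes in red, other TALE genes as open blue points, a solid line of equal values and dashed lines at 4-fold. *Irx2* lies inside the dashed lines, and the 5 other *Irx* genes lie above the upper one, near the left edge.

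The genes that pattern the neural tube together with the *Irx* genes were read beside them. Of 16 such genes, 10 were at least 4-fold higher in E10.5 forebrain and 1 in ES cells, with a median log2 ratio of 3.66. The same calls were made for 14.4% and 11.3% of all listed genes. *Six3* was at 0.14 in ES cells but 15.86 in E10.5 forebrain, far under *Irx3* in the latter by RPKM. The gap was smaller on inferred reads, which are not divided by exonic length, at 169 for *Six3* and 966 for *Irx3* in E10.5 forebrain. *Olig2* was listed at 0 in ES cells but at 197.97 in E10.5 forebrain. The gene higher in ES cells was *Nkx6-2*, a homeobox gene of the ventral neural tube, at 491.29 against 103.57. *Gli3*, the main repressor among the Gli factors of the Hedgehog pathway, was at 65.38 and 731.62, the highest value of the list in E10.5 forebrain.

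Markers of forebrain regions and of other tissues were taken to see what else moved with the *Irx* genes. Over all listed genes, 14.4% were at least 4-fold higher in E10.5 forebrain and 11.3% in ES cells. Of 8 caudal diencephalic markers, 6 were at least 4-fold higher in E10.5 forebrain and 1 in ES cells (*Gbx2*, 459.98 against 8.98), with sums of 501 in ES cells against 915 in E10.5 forebrain, and 2 were at 0 in ES cells. The 10 midbrain and hindbrain markers summed to 80.7 and 88.5, with 4 at least 4-fold higher in E10.5 forebrain and 2 in ES cells. In E10.5 forebrain their highest value was 26.0, and *Hoxb1* and *Hoxa2*, markers of the hindbrain, were listed at 0.

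Markers of cells other than neural ones were also present in the forebrain sample. Of 8 head mesenchyme and neural crest markers, 6 were at least 4-fold higher in E10.5 forebrain, with sums of 261 in ES cells against 5060 in E10.5 forebrain, and 1 (*Foxd3*) was higher in ES cells. Of 7 blood and endothelial markers, 6 were at least 4-fold higher in E10.5 forebrain, with sums of 858 and 674316, the latter mostly from the embryonic globins *Hbb-y* and *Hbb-bh1*. No marker of either list was at 0 in either library. Surface ectoderm markers, 7 of 8 of which were listed, summed to 2176 in ES cells against 602 in E10.5 forebrain, with 2 at least 4-fold higher in each. Of all listed genes, 14.4% were at least 4-fold higher in E10.5 forebrain and 11.3% in ES cells. The part of mesenchyme, blood and ectoderm in the *Irx* values of E10.5 forebrain was not tested.

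In ES cells, markers of the primitive streak and early mesendoderm were read beside *Irx2*. The 9 markers summed to 1230 in ES cells against 404 in E10.5 forebrain, with 3 at least 4-fold higher in E10.5 forebrain and 2 in ES cells. The shares of all listed genes with these calls were 14.4% and 11.3%, and counts from 9 genes are small. *T* made up most of the sum in ES cells, at 1112.09, and *Eomes* followed at 90.06. No marker of this list was at 0 in either library, and its part in the ES value of *Irx2* was not tested. Of the neural progenitor markers in the same library, *Nes* was the highest at 182.9. It was followed by *Msi1* at 33.57 (159 inferred reads) and *Pax6* at 17.54 (285 inferred reads). *Fabp7* was at 4.88, *Hes5* at 3.58 and *Pou3f3* at 0.8, and *Pou3f2* was listed at 0.

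**Figure D5:**
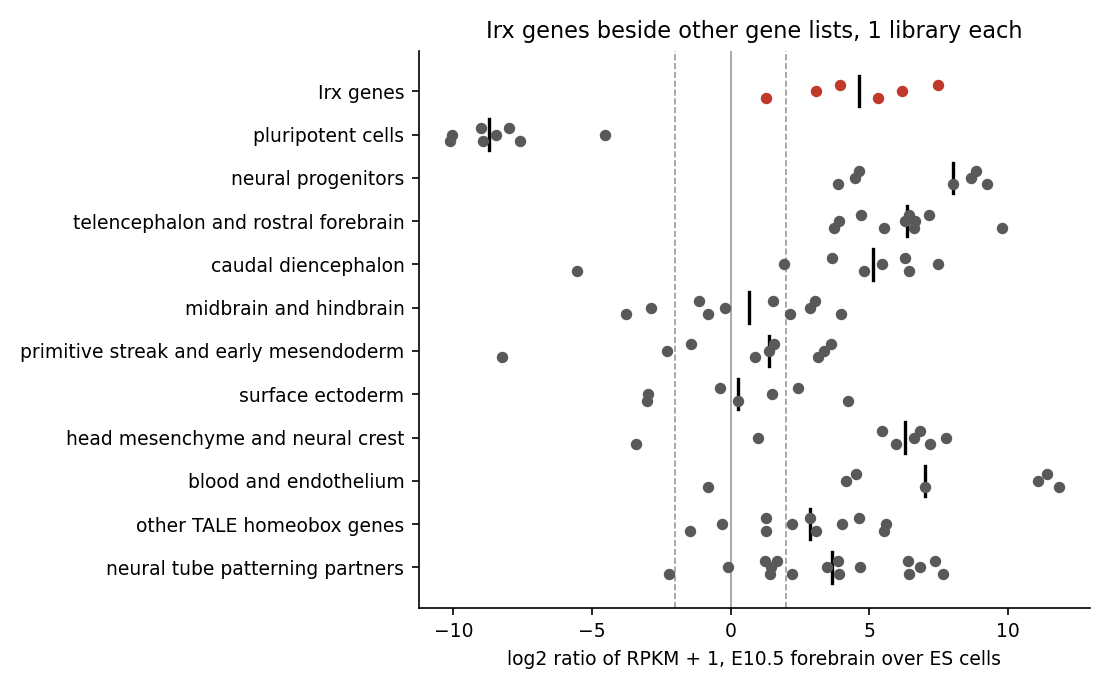
Log2 ratio of RPKM + 1, E10.5 forebrain over ES cells, for each *Irx* gene (red) and for the genes of the other lists (grey), with a black bar at the median of each list and dashed lines at 4-fold. The *Irx* genes spread from 1.28 for *Irx2* to 7.48 for *Irx3* around a median of 4.61, beside medians of 6.36 for telencephalic and rostral forebrain markers, 0.65 for midbrain and hindbrain markers and -8.71 for pluripotency markers.

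The medians of the other lists in this plot were 8.03 for neural progenitors, 5.14 for caudal diencephalon, 1.37 for primitive streak and early mesendoderm, 0.25 for surface ectoderm, 6.29 for head mesenchyme and neural crest and 7.01 for blood and endothelium. Where values of 0 were set to the floor, the medians of neural progenitors, of telencephalic and rostral forebrain markers and of midbrain and hindbrain markers were 7.01, 5.91 and 0.61. The median of the *Irx* genes has no such value, since none was listed at 0.

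*Hox* genes, the subject of the study, differed from the *Irx* genes in E10.5 forebrain. Of 36 listed *Hox* genes, 18 had ES values within the range of the 5 low *Irx* genes, 15 lay above and 3 below, and 1 lay above *Irx2*. That range rested on 1.19 to 3.46 inferred *Irx* reads, near the floor. Counting error and exonic length therefore limit how low *Hox* and *Irx* genes can be ordered in ES cells. In E10.5 forebrain, the highest *Hox* value was an RPKM of 1.58, under that of every *Irx* gene.

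Last, for each *Irx* gene the homeobox genes closest to it in both libraries were taken from 138 listed ones, by Euclidean distance on log2(RPKM + 1). With 2 values per gene, this describes a pair of levels and nothing more. The closest to *Irx3* were *Shox2* (distance 0.14, with 0.72 in ES cells against 327.66 in E10.5 forebrain), *Emx2* (0.33) and *Six2* (0.38). Those closest to *Irx5* were *Dbx1* (0.26), *Emx1* (0.39) and *Dlx1* (0.44), and *Barx1* (0.63) and *Gsx2* (0.67) were among those closest to *Irx1*. *Irx4* and *Irx6* shared *Hmx1*, *Lhx1* and *Six3* as their closest genes, at distances of 0.27 to 0.58. *Irx2* was set beside genes present in both sources, namely *Zhx3* (0.44), *Phox2a* (0.59) and *Homez* (0.77).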

How the data were processed

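Per the labels and the methods of the study, the authors depleted total RNA of rRNAs, prepared strand-specific libraries (TruSeq Stranded Total RNA), sequenced single-end reads on an Illumina HiSeq and mapped them to NCBIM37 (mm9). The submitters' processing notes name Bowtie 0.12.7. The labels name the 4C-seq pipeline and the methods the RNA-seq pipeline of HTSstation, and read lengths are given as 100 bp and 50 bp. The authors deposited 1 RPKM value per gene and sample, in tables of 29311 genes.

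Exonic lengths came from the GENCODE annotation of the same build, in which all 29311 genes had the listed coordinates. Multiplied by exonic length in kb, low RPKM values lay mostly near multiples of 1.221 (ES cells) and 0.8191 (E10.5 forebrain). The deposited values were 52.2 (ES cells) and 49.0 (E10.5 forebrain) times those per kb and 1000000 inferred reads, so they are not per 1000000 reads. The product of the factors 1.221 and 0.8191 is 1.00 and their ratio 1.49, and how they were set is not given in the sources used here. This step was set from genes of at most 2500 exonic bp. Of 5504 and 5254 such genes at no more than 12 steps, 66.0% and 69.1% lay within 0.05 of a whole multiple. Reads were inferred from this step and kept as fractions. Intervals of a level are exact Poisson, those of a ratio between genes or samples exact conditional binomial, and those of cluster sums approximate on the log scale. A call is a difference of at least 4-fold on log2(RPKM + 1), with no test, since each group had 1 sample. The alternatives were pseudocounts of 0.1 and 5, a minimum of 3 reads, 3 other scalings, sums of reads and each gene of a cluster left out. The *Irx* members and all gene lists were chosen with earlier results of these data known. Genes were named by rule, as the 6 *Irx* genes, listed genes within 500 kb of a cluster, the highest and lowest genes of the lists and the 3 nearest homeobox genes, though not every such gene is described, and further list genes with a known link to the *Irx* genes or the tissue are named as examples chosen with their values seen.

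Homeobox and upstream sequences were read from the mm9 genome (pysam 0.24.0), and exonic windows were matched to it with blastn 2.17.0. Calculations were run in Python 3.11.15 with pandas 2.3.3, numpy 2.4.6 and scipy 1.17.1, and plots were drawn with matplotlib 3.10.9.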

Additional observations from a re-analysis of the deposited data

How the results depend on the processing

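Of 70 recomputed values, 53 moved by less than their counting error or left a count within 1.5 times, 15 moved by more, and 2 turned the direction. The ratio of *IrxB* to *IrxA* turned in ES cells without *Irx2* (1.51) and in E10.5 forebrain without *Irx3* (0.858). In ES cells it was 0.0214 without *Irx5*. In E10.5 forebrain it was 1.87 with sums of reads, 1.41 without *Irx5*, 3.50 without *Irx1* and 5.14 without *Irx2*. The ratio of *IrxA* between sources was 5.26 with sums of reads, 2.63 without *Irx1*, 53.0 without *Irx2* and 4.97 with scaling to the sum of RPKM. That of *IrxB* ran from 99.5 to 271. The log2 ratios of the 6 genes kept their sign in all 30 recomputed values. Scaling to the sum of RPKM moved the median log2 ratio of all genes by 0.25, scaling to the upper quartile by -0.08 and scaling to inferred reads by 0.09, and the number of *Irx* genes at least 4-fold higher in E10.5 forebrain was 5 under each. No paired analysis was possible because each group had 1 library.

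With 1 library per source, variation between cultures or embryos is not measured. Depth limits the ES values of *Irx1*, *Irx3*, *Irx4* and *Irx6*, which are under 3 reads, and of *Irx5*. Their ratios to E10.5 forebrain depend on the pseudocount, from 1.64 to 4.18 on the log2 scale for *Irx4*, from 2.25 to 5.30 for *Irx6* and from 5.86 to 8.41 for *Irx3*.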
